A study of Mus musculus with 12 samples.

Results

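Interferon-stimulated genes, which cells switch on when interferon binds its receptors, were followed in mouse lung by sequencing of poly-A RNA. The 41 genes were taken by symbol from a deposited table of 49585 genes. All 41 were found, and all 41 were among the 16126 genes tested, which had to reach 1 CPM (the deposited read count scaled to library size) in 3 of the 12 libraries. By role they were divided into 4 Ifit genes, 6 genes of the Oas family, Isg15 with its protease gene Usp18, 4 transcription factors, 4 sensors of nucleic acid, 6 guanylate-binding proteins (Gbp genes), 5 immunity-related GTPases and 10 other effectors.

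The study examined the part that Rgs4, a regulator of G protein signalling, plays in asthma. It compared Rgs4 knockout (KO) with wild-type (WT) mice, and in each genotype exposure to Aspergillus fumigatus (Af), a mould, with phosphate-buffered saline (PBS). The 4 groups held 3 lung libraries each, named here by group and library number: KO_Af 12 to 14, KO_PBS 9 to 11, WT_Af 18 to 20 and WT_PBS 15 to 17. All mice carry the strain label Balb/cJ. How the knockout was made and the form, dose, route and length of exposure, as well as the age of the mice, have no entry in the sources used here. Library numbers run in blocks by group, so that group and library number cannot be told apart. The labels do not say whether each library came from its own mouse, so p-values measure only the spread between these libraries.

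Type I interferons (alpha and beta) and type III interferons (lambda) signal through their receptors and the kinases Jak1 and Tyk2 to a complex that includes Stat2 and Irf9 and binds an element in promoters called ISRE (interferon-stimulated response element). Interferon gamma, made mainly by NK and T cells, signals through Jak1 and Jak2, and its target promoters carry a different element called GAS (gamma-activated sequence). The products of the target genes block steps of virus replication, sense foreign nucleic acid, or, as the guanylate-binding proteins and immunity-related GTPases do, attack the vacuoles that hold microbes inside cells. Basal expression of many of these genes is kept up in healthy tissue by low interferon signalling.

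Libraries held 20708884 to 30229446 reads. Rgs4 itself, the check of the genotype labels, had 0.848 to 1.47 CPM in KO_Af and 0.571 to 1.10 CPM in KO_PBS, against 42.7 to 48.8 CPM in WT_Af and 20.7 to 25.8 CPM in WT_PBS, so each library fitted its label. Some libraries stood apart from the others of their group. KO_Af 12 had a summed level of 6 epithelial markers of 28436 CPM, against 13566 and 17619 CPM in KO_Af 13 and 14. That sum lay within the range of KO_PBS, 27278 to 29468 CPM. Its sum of 6 monocyte markers, 546 CPM, lay above the 303 to 337 CPM of KO_PBS. In 35 of the 41 genes KO_Af 12 lay below both KO_Af 13 and 14. WT_Af 18 had a summed level of 8 T cell markers of 499 CPM, against 125 and 97.9 CPM in WT_Af 19 and 20. WT_PBS 15 had 35.2 CPM over 4 B cell markers, against 126 and 126 CPM in WT_PBS 16 and 17.

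Promoter sequence from RefSeq (build GRCm38.p6, from 250 bases before to 50 after a gene's start) was matched to 31 of the 41 genes, with 36 windows. The ISRE was searched as GAAA, any 2 bases and GAAA again, and the GAS element as TTCNNNGAA, on both strands, and the letters of neighbouring matches may overlap. An ISRE match was present in 20 of the 31 genes (64.5%), against 3.99% of the 27025 genes with a window. A GAS match was present in 9 of the 31 genes (29%), against 9.55% of genes with a window. By window the shares were 58.3% of the windows of these genes against 3.44% of 32851 windows for ISRE, and 25% against 8.3% for GAS. A match describes the letters in the window, not binding. The letters are those of the reference build, and the promoters of these Balb/cJ mice were not themselves sequenced.

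The following sequences are the 200 bases before the start of 8 genes on which the results below turn, written 5′ to 3′ along the gene's own strand, with ISRE and GAS matches in capitals. Isg15 (chr4:156200819-156201018, minus strand), Bst2 (chr8:71537473-71537672, minus strand) and Oas1a (chr5:120907526-120907725, minus strand) rose under Af in both genotypes, as did Igtp (chr11:58199356-58199555, plus strand). Ifit3b (chr19:34607757-34607956, plus strand) fell under Af in both. Gbp3 (chr3:142559844-142560043, plus strand), Ifi47 (chr11:49076387-49076586, plus strand) and Cmpk2 (chr12:26469015-26469214, plus strand) were higher in KO than in WT lungs under PBS.
Isg15: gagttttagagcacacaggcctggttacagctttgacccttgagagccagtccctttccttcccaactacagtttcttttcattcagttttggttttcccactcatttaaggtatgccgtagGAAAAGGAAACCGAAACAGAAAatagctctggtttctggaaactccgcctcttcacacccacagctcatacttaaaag
Bst2: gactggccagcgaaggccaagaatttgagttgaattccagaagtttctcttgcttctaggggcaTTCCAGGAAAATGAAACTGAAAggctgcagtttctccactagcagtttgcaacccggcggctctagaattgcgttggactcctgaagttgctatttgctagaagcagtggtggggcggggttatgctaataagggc
Oas1a: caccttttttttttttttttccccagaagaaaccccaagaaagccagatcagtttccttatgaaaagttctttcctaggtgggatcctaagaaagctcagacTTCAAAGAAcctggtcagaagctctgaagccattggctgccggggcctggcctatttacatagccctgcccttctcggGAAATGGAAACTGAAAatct
Igtp: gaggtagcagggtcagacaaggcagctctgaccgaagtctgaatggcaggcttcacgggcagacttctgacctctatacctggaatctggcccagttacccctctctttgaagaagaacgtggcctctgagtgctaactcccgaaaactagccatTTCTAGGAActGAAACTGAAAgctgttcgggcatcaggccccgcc
Ifit3b: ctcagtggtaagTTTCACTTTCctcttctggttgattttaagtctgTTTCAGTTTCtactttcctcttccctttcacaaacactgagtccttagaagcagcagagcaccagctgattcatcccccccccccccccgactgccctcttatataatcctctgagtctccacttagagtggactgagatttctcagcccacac
Gbp3: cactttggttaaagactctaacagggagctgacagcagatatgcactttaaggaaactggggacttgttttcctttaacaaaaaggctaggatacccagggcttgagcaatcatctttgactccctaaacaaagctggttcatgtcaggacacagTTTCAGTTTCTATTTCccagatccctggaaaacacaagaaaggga
Ifi47: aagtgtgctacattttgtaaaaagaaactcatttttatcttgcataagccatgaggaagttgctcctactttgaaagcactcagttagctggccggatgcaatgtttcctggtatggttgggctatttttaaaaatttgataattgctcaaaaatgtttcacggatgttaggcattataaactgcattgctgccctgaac
Cmpk2: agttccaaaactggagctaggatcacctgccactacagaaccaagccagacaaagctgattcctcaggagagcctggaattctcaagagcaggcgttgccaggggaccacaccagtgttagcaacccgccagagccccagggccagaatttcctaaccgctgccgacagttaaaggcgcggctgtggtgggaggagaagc

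In Isg15, 3 ISRE matches overlap in 1 run that begins at position -78 from the start. Bst2 and Oas1a each hold 2 overlapping ISRE matches and 1 GAS match, and in Bst2 all 3 form 1 run. Igtp holds 1 match of each kind. Ifit3b holds 2 ISRE matches in the reverse direction, at positions -188 and -154, so genes that rose and a gene that fell under Af both carry the element. Of the 3 genes shown that were higher in KO under PBS, Gbp3 holds 2 overlapping ISRE matches, and in Ifi47 and Cmpk2 these letters were not present.

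**Figure D1:**
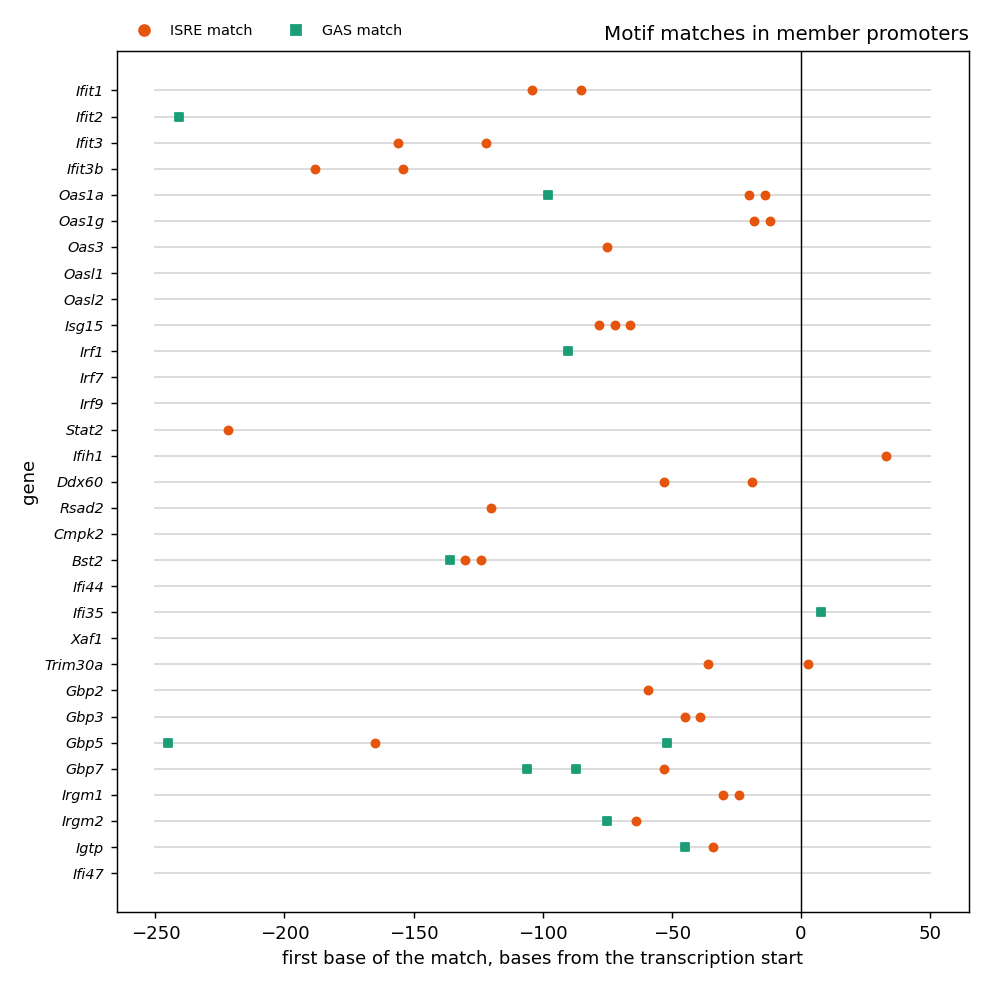
Each row is 1 of the 31 genes with a promoter window (grey line, from 250 bases before to 50 after the transcription start, with the matches of all its windows). Circles mark the first base of an ISRE match and squares that of a GAS match; 4 of 4 matched guanylate-binding protein genes hold an ISRE match, and Ifi47, Cmpk2, Irf7 and Xaf1 are among the rows with neither.

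The response of the 41 genes to Af was compared in each genotype. Many of them were higher under Af in both KO and WT lungs. Among them were Isg15, the Oas1 genes, the sensor gene Zbp1, the GTPase gene Mx1 and Bst2, which tethers budding virus to the cell. In KO lungs 18 of 41 rose and 4 fell, where 57.9% of all genes tested were called (28.7% higher and 29.2% lower). In 16 of 41 all KO_Af libraries lay above all KO_PBS libraries and in 4 below, against 31.1% and 31.7% of all genes. In WT lungs 21 of 41 rose and 1 fell, where 51.8% of all genes tested were called (26.2% higher and 25.6% lower). In 23 of 41 all WT_Af libraries lay above all WT_PBS libraries and in 3 below, against 32.7% and 32.7% of all genes. The median log2 fold change of the 41 genes was 0.21 in KO and 0.41 in WT, against -0.02 over all genes in each. Calls are those with an adjusted p under 0.05 in limma on log2(CPM + 0.5), over all genes tested, and fold changes are on that scale with their SE.

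Isg15 encodes a ubiquitin-like protein that is attached to other proteins and also secreted. It had 28.8, 29.2 and 36.2 CPM in KO_Af, against 11.4, 10.4 and 9.98 CPM in KO_PBS, a log2 fold change of 1.52 ± 0.11 (adjusted p = 1.07e-06). In WT lungs it had 20.7, 21.7 and 20.7 CPM under Af, against 8.65, 10.6 and 9.16 CPM under PBS, a log2 fold change of 1.11 ± 0.11 (adjusted p = 1.36e-05). The Af and PBS libraries did not overlap in either genotype, and each KO_Af library lay above each WT_Af library. Usp18 encodes the protease that removes Isg15 and that also restrains the type I receptor. Usp18 had 21.6, 24.9 and 27.7 CPM in KO_Af, against 16.7, 16.4 and 15.5 CPM in KO_PBS (log2 0.59 ± 0.11, adjusted p = 7.44e-04). In WT lungs it had 18.5, 19.2 and 17.9 CPM under Af, against 15.0, 16.5 and 13.1 CPM under PBS (log2 0.31 ± 0.11, adjusted p = 0.0315). The WT call was lost when any WT_Af library, WT_PBS 15 or WT_PBS 17 was left out, although the groups did not overlap.

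Oas genes encode the synthetases of the oligoadenylates that activate RNase L, which degrades RNA. Oas1a had 35.2, 33.5 and 43.7 CPM in KO_Af, against 16.6, 16.1 and 16.0 CPM in KO_PBS (log2 1.17 ± 0.12). In WT lungs it had 28.8, 27.4 and 29.3 CPM under Af, against 12.3, 16.0 and 13.0 CPM under PBS (log2 1.03 ± 0.12, adjusted p = 3.25e-05). All Af libraries lay well above all PBS libraries of the same genotype. Its neighbour Oas1g had 7.75, 9.33 and 9.06 CPM in KO_Af, against 3.80, 2.38 and 3.87 CPM in KO_PBS (log2 1.28 ± 0.20, adjusted p = 2.36e-04), and rose in WT lungs by log2 0.85 ± 0.20. Oas1a and Oas1g share 57.6% of the 50-base words of Oas1a, so reads could have been split between them and the value of each alone is uncertain. Oasl1, known in mouse to restrain Irf7 translation, had 9.95, 13.1 and 18.6 CPM in KO_Af, against 8.88, 8.73 and 5.76 CPM in KO_PBS (log2 0.78 ± 0.24). In WT lungs Oasl1 had 9.69, 10.1 and 9.21 CPM under Af, against 3.31, 5.38 and 5.48 CPM under PBS (log2 0.99 ± 0.24). Oas2 rose in WT lungs (log2 0.57 ± 0.21) and was not called in KO lungs (log2 0.48 ± 0.21), while Oas3 and Oasl2 were called in neither.

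Among the 4 nucleic acid sensors the response was split. Zbp1, a sensor of Z-form nucleic acid that can start necroptosis, had 28.2, 38.5 and 42.4 CPM in KO_Af, against 12.1, 15.0 and 13.6 CPM in KO_PBS (log2 1.37 ± 0.19, adjusted p = 1.12e-04). In WT lungs it had 22.8, 31.8 and 31.0 CPM under Af, against 6.71, 10.8 and 8.83 CPM under PBS (log2 1.66 ± 0.19), the highest log2 fold change of the 41 genes in WT. Its Af and PBS libraries were far apart in both genotypes. Ifih1, which senses long double-stranded RNA, moved the other way. It had 35.5, 48.1 and 48.8 CPM in KO_Af, against 58.5, 56.9 and 51.4 CPM in KO_PBS (log2 -0.34 ± 0.12, adjusted p = 0.0272), and 38.0, 39.9 and 41.6 CPM in WT_Af, against 45.8, 50.4 and 42.7 CPM in WT_PBS (log2 -0.21 ± 0.12, not called). In both genotypes all Af libraries lay below all PBS libraries. The KO call of Ifih1 was lost without KO_Af 12, KO_PBS 9 or KO_PBS 10. Dhx58, a regulator of that sensing pathway, rose in WT lungs (log2 0.47 ± 0.13) and was not called in KO lungs (log2 0.20 ± 0.13), and the helicase gene Ddx60 was called in neither.

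The Ifit genes, whose products bind foreign RNA and block its translation, lie next to each other on chromosome 19 (34550694 to 34650009, plus strand, GRCm38) and did not respond as a block. Ifit1 had 23.1, 32.4 and 36.8 CPM in KO_Af, against 21.3, 18.8 and 15.8 CPM in KO_PBS (log2 0.69 ± 0.17, adjusted p = 0.00526). In WT lungs it had 23.3, 28.3 and 28.4 CPM under Af, against 18.8, 24.9 and 23.8 CPM under PBS (log2 0.25 ± 0.17, not called). The groups overlapped in WT and did not in KO. Ifit3b had 18.2, 17.8 and 15.3 CPM in KO_Af, against 38.4, 34.1 and 19.3 CPM in KO_PBS (log2 -0.77 ± 0.20, adjusted p = 0.00695). In the WT genotype it had 12.7, 12.1 and 13.4 CPM under Af, against 19.9, 24.3 and 23.5 CPM under PBS (log2 -0.80 ± 0.20, adjusted p = 0.00643). Ifit3b was thus lower under Af in both genotypes with no overlap, although KO_PBS 11 lay close to the KO_Af libraries. Ifit2 had 21.6, 32.2 and 32.4 CPM in KO_Af, against 43.5, 41.3 and 35.2 CPM in KO_PBS (log2 -0.49 ± 0.14, adjusted p = 0.013), and 25.3, 23.7 and 25.1 CPM in WT_Af, against 28.9, 34.1 and 32.9 CPM in WT_PBS (log2 -0.36 ± 0.14, adjusted p = 0.0536). The KO call of Ifit2 was lost without KO_PBS 9. Ifit3 was called in neither genotype, and it shares 51.2% of its 50-base words with Ifit3b, so the values of this pair are uncertain.

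Of the transcription factors, Irf7, which amplifies type I interferon production, had 47.1, 62.5 and 68.6 CPM in KO_Af, against 44.7, 40.2 and 40.7 CPM in KO_PBS (log2 0.48 ± 0.18, adjusted p = 0.0355). In the WT genotype it had 39.8, 41.9 and 40.1 CPM under Af, against 24.1, 42.3 and 32.1 CPM under PBS (log2 0.34 ± 0.18, not called), where WT_PBS 16 lay above every WT_Af library. Irf1, a factor induced by interferon gamma, had 104, 169 and 145 CPM in KO_Af, against 123, 124 and 121 CPM in KO_PBS (log2 0.16 ± 0.15, not called). In the WT genotype it had 148, 176 and 186 CPM under Af, against 116, 127 and 124 CPM under PBS (log2 0.47 ± 0.15, adjusted p = 0.0203). The KO_Af libraries of Irf1 were spread on both sides of KO_PBS, and the WT groups did not overlap. Irf9 had 64.5, 84.2 and 83.6 CPM in KO_Af, against 64.9, 66.7 and 61.0 CPM in KO_PBS (log2 0.26 ± 0.10, adjusted p = 0.0479), and 69.4, 74.2 and 77.7 CPM in WT_Af, against 60.1, 61.4 and 66.8 CPM in WT_PBS (log2 0.23 ± 0.10, not called). The Irf9 call in KO was lost in most fits that left out 1 library. Its partner Stat2 was not called in either genotype, with 56.4, 90.1 and 83.3 CPM in KO_Af, against 70.5, 71.3 and 64.0 CPM in KO_PBS, and with 78.6, 90.3 and 92.9 CPM in WT_Af, against 73.7, 71.5 and 79.8 CPM in WT_PBS. The KO calls of Irf7 and Irf9 and the WT call of Irf1 did not hold when single libraries were left out.

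Among the other effectors, Bst2 had 88.4, 83.4 and 95.6 CPM in KO_Af, against 44.2, 40.0 and 47.6 CPM in KO_PBS (log2 1.01 ± 0.09, adjusted p = 4.07e-06). In the WT genotype it had 65.2, 61.5 and 68.2 CPM under Af, against 37.9, 43.0 and 43.8 CPM under PBS (log2 0.64 ± 0.09, adjusted p = 1.52e-04). Each Af library of Bst2 lay above each PBS library, and the KO_Af libraries were the highest. Mx1 had 6.84, 10.1 and 9.75 CPM in KO_Af, against 4.62, 4.42 and 4.13 CPM in KO_PBS (log2 0.92 ± 0.18, adjusted p = 9.76e-04), and 7.92, 6.52 and 7.71 CPM in WT_Af, against 2.77, 3.95 and 2.50 CPM in WT_PBS (log2 1.16 ± 0.18, adjusted p = 2.69e-04). Rsad2, the antiviral enzyme viperin, rose in KO lungs by log2 1.20 ± 0.32 and in WT lungs by log2 0.94 ± 0.32, with a wide spread. Its neighbour on chromosome 12, the mitochondrial nucleotide kinase gene Cmpk2, did not follow it. Cmpk2 had 16.0, 18.2 and 20.6 CPM in KO_Af, against 24.0, 23.0 and 20.9 CPM in KO_PBS (log2 -0.31 ± 0.11, adjusted p = 0.0311), and 14.6, 13.6 and 16.0 CPM in WT_Af, against 14.9, 17.0 and 16.0 CPM in WT_PBS (log2 -0.12 ± 0.11, not called). The KO call of Cmpk2 was lost in 7 of 23 alternatives, among them the fits without KO_Af 12, KO_Af 13, KO_PBS 9 or KO_PBS 10. Trim30a was not called in KO lungs (log2 0.05 ± 0.13) and rose in WT lungs (log2 0.41 ± 0.13), Ifi35 rose in KO lungs (log2 0.19 ± 0.07) and was not called in WT lungs (log2 0.04 ± 0.07), and Mx2, Ifi44, Xaf1 and Parp14 were called in neither.

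The guanylate-binding proteins and immunity-related GTPases, which act at vacuoles holding microbes, rose in WT lungs in 4 of 6 and 4 of 5 genes and in KO lungs in 2 of 6 and 3 of 5, with medians of log2 0.67 and 0.65 in WT and 0.19 and 0.45 in KO. Over all genes tested, 26.2% were called higher in WT lungs and 28.7% in KO lungs. Without KO_Af 12 the KO medians were log2 0.32 and 0.60, with 3 of 6 and 4 of 5 called. In that fit 9460 of 16046 genes were called in KO lungs in either direction. Igtp had 43.1, 70.4 and 57.6 CPM in KO_Af, against 36.7, 39.4 and 37.0 CPM in KO_PBS (log2 0.56 ± 0.14, adjusted p = 0.00518). In lungs of WT mice it had 51.1, 55.4 and 61.0 CPM under Af, against 29.5, 28.8 and 30.6 CPM under PBS (log2 0.90 ± 0.14, adjusted p = 3.12e-04). Igtp did not overlap between exposures in either genotype, and it shares exons with Irgm2, so its reads may be split. Iigp1 had 63.4, 122 and 93.4 CPM in KO_Af, against 50.5, 49.5 and 43.3 CPM in KO_PBS (log2 0.90 ± 0.24), and 60.8, 84.8 and 94.2 CPM in WT_Af, against 45.3, 27.5 and 31.2 CPM in WT_PBS (log2 1.20 ± 0.24). Its Af libraries were spread widely but stayed above PBS in both genotypes. Gbp6 had 15.2, 24.5 and 19.9 CPM in KO_Af, against 10.5, 14.7 and 15.9 CPM in KO_PBS (log2 0.52 ± 0.19), and 19.5, 21.7 and 23.0 CPM in WT_Af, against 8.57, 9.81 and 12.0 CPM in WT_PBS (log2 1.06 ± 0.19). Gbp6 overlapped between exposures in KO and not in WT, and 70.7% of its 50-base words occur in other genes. Gbp4 rose in WT lungs (log2 0.81 ± 0.17, adjusted p = 0.00183) with 177, 177 and 219 CPM under Af, against 118, 93.4 and 116 CPM under PBS. In KO lungs Gbp4 had 163, 251 and 166 CPM under Af, against 170, 147 and 178 CPM under PBS (log2 0.20 ± 0.17, not called), where KO_Af 13 alone was above the PBS libraries. Gbp5, which helps to activate inflammasomes, had 21.3 CPM in KO_Af 12, against 47.7 and 44.5 CPM in KO_Af 13 and 14, and 20.3 to 22.0 CPM in KO_PBS. Its log2 fold change in KO lungs was 0.75 ± 0.27 with KO_Af 12 and 1.11 without it, and that in WT lungs was 1.29 ± 0.27.

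**Figure D2:**
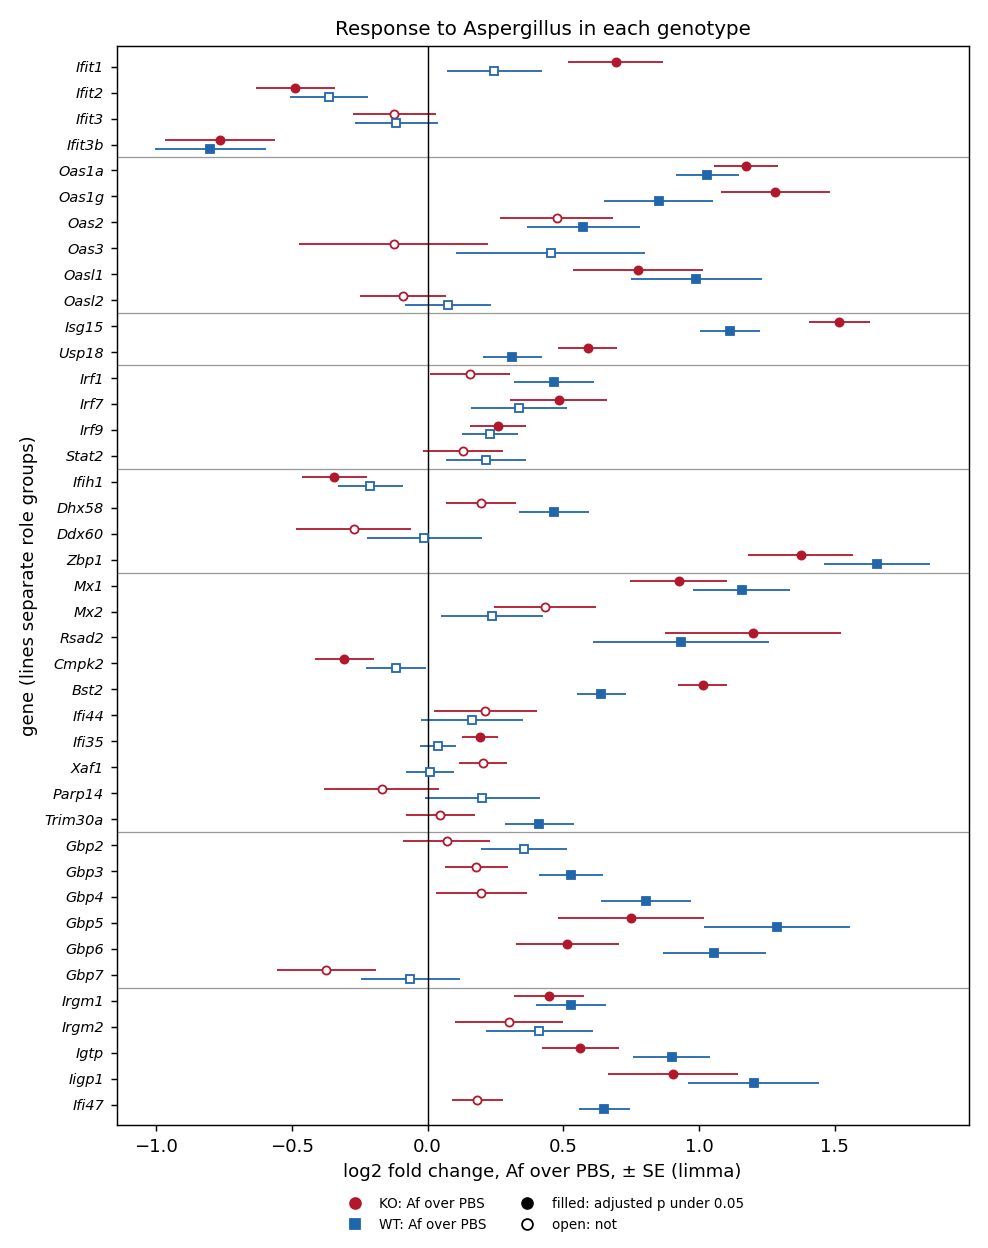
Log2 fold changes of Af over PBS with SE (bars) for the 41 genes in KO (circles) and WT (squares) lungs, where filled symbols mark adjusted p under 0.05 in limma. The points run from log2 -0.80 (Ifit3b in WT) to 1.66 (Zbp1 in WT), and 3 of 4 Ifit genes lie left of 0 in both genotypes.

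Several calls named above rested on single libraries. In KO lungs Oasl1 was not called without KO_Af 14 or KO_PBS 11, Gbp6 without KO_Af 13, KO_Af 14, KO_PBS 9 or KO_PBS 10, Ifi35 without KO_Af 14, KO_PBS 9 or KO_PBS 10, and Gbp5 without KO_Af 13, KO_Af 14 or any KO_PBS library. Irf7 lost its call in KO under the same omissions as Gbp5. In WT lungs Irf1 and Trim30a were not called without WT_Af 19, WT_Af 20 or WT_PBS 15, Oas2 without those or WT_PBS 16, and Rsad2 without WT_Af 20, WT_PBS 15 or WT_PBS 17. The count of calls in KO depended on single libraries too. It was 28 without KO_Af 12, with 20 genes shared with the 22 of all libraries, and 14 without KO_PBS 9, all 14 among the 22. Over all genes, 9460 of 16046 were called without KO_Af 12 and 7921 of 16068 without KO_PBS 9, against 9331 of 16126 with all libraries. Without KO_Af 12 the median of the 41 genes in KO lungs was log2 0.39, against 0.21 with it. In bulk tissue, a change in the share of a cell type and a change of RNA per cell cannot be told apart, and markers of some immune cells moved with exposure. Counts of markers called stand against 57.9% of all genes called in KO and 51.8% in WT. In KO lungs 4 of 6 monocyte markers rose, with a summed level of 546 to 782 CPM in KO_Af, against 303 to 337 CPM in KO_PBS. In WT lungs 5 of 6 rose, with 509 to 592 CPM in WT_Af, against 255 to 265 CPM in WT_PBS. Of 8 NK cell markers 1 rose and 1 fell in KO lungs, with 58.1 to 90.0 CPM in KO_Af, against 59.5 to 72.1 CPM in KO_PBS. In WT lungs 4 of 8 NK cell markers rose, with 55.5 to 79.4 CPM in WT_Af, against 21.5 to 39.6 CPM in WT_PBS. No T cell marker of 8 passed in KO lungs, with 82.4 to 122 CPM in KO_Af, against 104 to 128 CPM in KO_PBS, and 6 of 8 rose in WT lungs, with 97.9 to 499 CPM in WT_Af, against 42.8 to 95.0 CPM in WT_PBS. Of 6 neutrophil markers 1 rose in KO lungs, with 528 to 795 CPM in KO_Af, against 276 to 511 CPM in KO_PBS, and 5 rose in WT lungs, with 403 to 536 CPM in WT_Af, against 130.1 to 215 CPM in WT_PBS. Of 5 eosinophil markers 3 rose in each genotype, with 92.5 to 139 CPM in KO_Af, against 29.7 to 46.3 CPM in KO_PBS, and 55.3 to 138 CPM in WT_Af, against 25.2 to 30.1 CPM in WT_PBS. Of 4 B cell markers 0 passed in KO lungs and 1 rose in WT lungs, and of 6 markers of plasmacytoid dendritic cells, which can make much type I interferon, 1 rose and 1 fell in KO and 3 rose and 1 fell in WT. Of 6 endothelial markers 3 fell in each genotype, and of 6 epithelial markers 1 rose and 2 fell in KO lungs, while 3 fell in WT lungs. In KO the T, B, NK, neutrophil, plasmacytoid dendritic cell, endothelial and epithelial lists were called less often than all genes. In WT the NK, B cell, endothelial and epithelial lists were. Apart from 1 eosinophil marker no marker was at 0 in any library, and the part of these cells in the responses was not tested.

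The interferon genes themselves were hardly detected. Ifng, which encodes interferon gamma, had 27 reads over the 3 KO_Af libraries and 12 over KO_PBS, and 36 over WT_Af and 9 over WT_PBS. Its levels were 0.393, 0.414 and 0.308 CPM in KO_Af, against 0.284, 0.111 and 0.044 CPM in KO_PBS, and 0.48, 0.328 and 0.599 CPM in WT_Af, against 0.0414, 0.0868 and 0.283 CPM in WT_PBS. All Af libraries lay above all PBS libraries of the same genotype, but the gene was under 1 CPM everywhere and was left out of the main test. In KO the gap between KO_Af 14 (0.308 CPM) and KO_PBS 9 (0.284 CPM) was smaller than 1 read. A read was worth 0.0386 CPM in KO_Af 14 and 0.0355 CPM in KO_PBS 9, so the separation in KO came from the scaling of libraries. In a fit with no filter its log2 fold change under Af was 0.45 in KO (adjusted p = 0.0665) and 0.61 in WT (adjusted p = 0.0185). The other 10 ligand genes, among them Ifnb1 (interferon beta), 5 alpha genes and 2 lambda genes, had 8 reads in all over 12 libraries, and no library had more than 3 reads of any. A count of 0 in a library allows a level of up to 0.0983 to 0.144 CPM (3 reads, counting error only), so low expression of these ligands was not detectable at this depth.

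Of 9 genes for receptors and kinases, 2 rose and 2 fell under Af in KO lungs, and 4 rose and 2 fell in WT lungs, where 57.9% of all genes were called in KO and 51.8% in WT. Ifngr2, the signalling chain of the interferon gamma receptor, had 87.6, 105 and 78.8 CPM in KO_Af, against 58.2, 56.9 and 56.8 CPM in KO_PBS (log2 0.64), and 99.0, 92.9 and 97.8 CPM in WT_Af, against 56.7, 56.6 and 48.2 CPM in WT_PBS (log2 0.84). Jak2, which works with it, rose by log2 0.75 in KO and 0.80 in WT. Ifngr1, the binding chain, was not called in KO (log2 -0.07) and fell in WT (log2 -0.34, adjusted p = 0.0234). Ifnar1 was called in neither genotype, Ifnar2 rose in WT (log2 0.36) and was not called in KO (log2 0.15), and Ifnlr1, the lambda receptor of epithelium, fell by log2 0.80 in KO and by log2 0.44 in WT. Tyk2, the kinase of the type I receptor, fell in KO lungs (log2 -0.30, adjusted p = 0.0436).

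The counts of the further lists under Af stand against the same shares of all genes called, 57.9% in KO and 51.8% in WT. Of 5 inhibitors of the pathway, 3 rose and 1 fell in KO lungs, and 3 rose and 2 fell in WT lungs. Socs1, which blocks the receptor-bound kinases, had 13.0, 21.4 and 12.9 CPM in KO_Af, against 3.13, 2.82 and 3.65 CPM in KO_PBS (log2 2.10, adjusted p = 1.34e-05), and 16.2, 11.7 and 13.0 CPM in WT_Af, against 1.95, 3.25 and 2.08 CPM in WT_PBS (log2 2.29, adjusted p = 1.06e-05). Socs3 rose by log2 1.87 in KO and 1.90 in WT, and the phosphatase gene Ptpn2 by log2 1.66 in KO and 1.35 in WT. Pias1 fell in both (log2 -0.50 in KO and -0.44 in WT). Of 32 further interferon-induced genes, 15 rose and 4 fell in KO, and 17 rose and 2 fell in WT. The highest rises were those of the chemokine genes Cxcl9 and Cxcl10, which draw T cells: log2 3.63 and 3.17 in KO, and 2.62 and 3.13 in WT. Cxcl9 had 7.87, 26.1 and 30.1 CPM in KO_Af, against 1.42, 0.892 and 0.835 CPM in KO_PBS, and 11.7, 12.0 and 12.2 CPM in WT_Af, against 0.579, 2.47 and 2.08 CPM in WT_PBS. Of 5 further interferon regulatory factors, Irf4 and Irf5 rose in both genotypes (1.72-fold and 1.71-fold in KO, 2.27-fold and 2.26-fold in WT), and Irf8 rose in WT (log2 0.82). Of 11 genes for sensing of nucleic acid and its adaptors, 6 rose and 2 fell in KO, and 5 rose and 1 fell in WT, with the adaptor gene Tmem173 (STING) highest at log2 1.66 in KO and 1.76 in WT. Of 11 genes that induce interferon gamma or respond to its inducers, 9 were tested, of which 1 rose and 2 fell in KO, and 4 rose and 2 fell in WT. Il18, an inducer of interferon gamma, fell in both (log2 -0.82 in KO and -1.29 in WT).

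Lungs of KO and WT mice were then compared under PBS, that is, without the mould. The 41 genes sat slightly higher in KO: 38 of 41 had a positive log2 fold change, with a median of 0.32, against a median of 0.01 over all genes. Ifi47, Gbp3, Dhx58 and Cmpk2 passed the test and were higher in KO, and none was lower, where 3.55% of all genes tested were called (1.9% higher and 1.66% lower). At an unadjusted p under 0.05, 17 of 41 were higher and 0 lower, against 9.28% of all genes higher and 8.06% lower. The KO libraries all lay above the WT libraries in 18 of the 41 genes, against 17.4% of all genes, and all below in 1, Stat2, against 15.7%. edgeR on read counts recovered from the table called 4 of the 41, against 3.3% of all genes, and DESeq2 called 7, against 7.54%.

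Ifi47, an immunity-related GTPase on chromosome 11 (49076587 to 49096974, plus strand, GRCm38), had 39.1, 36.9 and 40.8 CPM in KO_PBS, against 25.8, 24.6 and 22.9 CPM in WT_PBS (log2 0.66 ± 0.10, adjusted p = 0.00459). The lowest KO library lay well above the highest WT library, and the call held in all 23 alternatives. It overlaps Olfr56 on the same strand and the antisense Gm12188, and the sources used here do not say if strand was used in counting. Gbp3 on chromosome 3 had 44.6, 45.9 and 44.4 CPM in KO_PBS, against 30.7, 28.8 and 31.4 CPM in WT_PBS (log2 0.56 ± 0.12, adjusted p = 0.0243). Cmpk2 had 24.0, 23.0 and 20.9 CPM in KO_PBS, against 14.9, 17.0 and 16.0 CPM in WT_PBS (log2 0.49 ± 0.11, adjusted p = 0.0336). Dhx58 had 15.2, 14.6 and 13.2 CPM in KO_PBS, against 8.90, 10.4 and 9.45 CPM in WT_PBS (log2 0.56 ± 0.13, adjusted p = 0.0383). These genes did not overlap between genotypes either. Leaving out any 1 of the 6 PBS libraries ended the calls of Gbp3, Cmpk2 and Dhx58, which leaves 2 libraries in a group. Only 1 member was then called without KO_PBS 9, KO_PBS 10, WT_PBS 15, WT_PBS 16 or WT_PBS 17, 2 without KO_PBS 11, and 8 without KO_Af 12, which enters the shared estimate of spread alone. Over all genes, 130 (without KO_PBS 10) to 428 (without WT_PBS 16) were called without 1 PBS library and 1235 without KO_Af 12, against 573 with all libraries.

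By role, all 6 guanylate-binding proteins (median log2 0.49), all 4 sensors (median 0.57), all 5 immunity-related GTPases (median 0.34) and all 10 other effectors (median 0.24) had a positive log2 fold change. Gbp4 had 170, 147 and 178 CPM in KO_PBS, against 118, 93.4 and 116 CPM in WT_PBS (log2 0.60 ± 0.17, adjusted p = 0.0746). Zbp1 had 12.1, 15.0 and 13.6 CPM in KO_PBS, against 6.71, 10.8 and 8.83 CPM in WT_PBS (log2 0.62 ± 0.19, adjusted p = 0.112). Both sat above WT in every KO library without passing the test. Oas3 had the highest log2 fold change, 0.83 ± 0.35 (adjusted p = 0.239), with 12.7, 13.2 and 7.91 CPM in KO_PBS, against 3.27, 8.33 and 7.65 CPM in WT_PBS, where the groups overlapped. Isg15 (log2 0.16 ± 0.11), Bst2 (log2 0.08 ± 0.09), Irf1 (log2 0.00 ± 0.15) and Irf9 (log2 0.03 ± 0.10) did not pass the test, and Ifit1 had the lowest value (log2 -0.27 ± 0.17). Of the 71 further pathway genes tested, most were not called and none was lower in KO_PBS. Of 5 further interferon regulatory factors 1 was higher, Irf5 (log2 0.47). Of 32 further interferon-induced genes 4 were higher: Slfn2 (log2 0.71), Sp100 (log2 0.53), the immunoproteasome gene Psmb8 (log2 0.49) and the chemokine gene Ccl5 (log2 0.90, adjusted p = 0.0467). No gene of the other pathway lists was called, and over all genes 1.9% were called higher.

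Markers of several immune cells, but not all, were also higher in KO_PBS, where 3.55% of all genes tested were called. Of 8 NK cell markers 2 passed the test and all 8 were positive (median log2 0.89), with a summed level of 59.5 to 72.1 CPM in KO_PBS, against 21.5 to 39.6 CPM in WT_PBS. Of 6 monocyte markers 3 passed (median log2 0.55), with 303 to 337 CPM in KO_PBS, against 255 to 265 CPM in WT_PBS. Of 6 neutrophil markers 2 passed (median log2 1.06), with 276 to 511 CPM in KO_PBS, against 130.1 to 215 CPM in WT_PBS. T and B cell markers were positive in 8 of 8 and 4 of 4 genes (medians log2 0.79 and 1.24) and none passed, with T cell sums of 104 to 128 CPM in KO_PBS, against 42.8 to 95.0 CPM in WT_PBS, and B cell sums of 184 to 199 CPM in KO_PBS, against 35.2 to 126 CPM in WT_PBS. Eosinophil markers were positive in 2 of 5 genes (median log2 -0.02) and markers of plasmacytoid dendritic cells in 4 of 6 (median log2 0.33), and none passed. Apart from 1 eosinophil marker none of these markers was at 0 in any library. Their part in the difference of the 41 genes was not tested. WT_PBS 15 had the lowest sum of all 12 libraries for NK, T and B cell markers, and over the 41 genes its median lay 0.41 below each gene's mean on the log2 scale, against 0.17 and 0.33 below in WT_PBS 16 and 17. Without it the median of the 41 genes was log2 0.26 and 36 of 41 were positive.

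**Figure D3:**
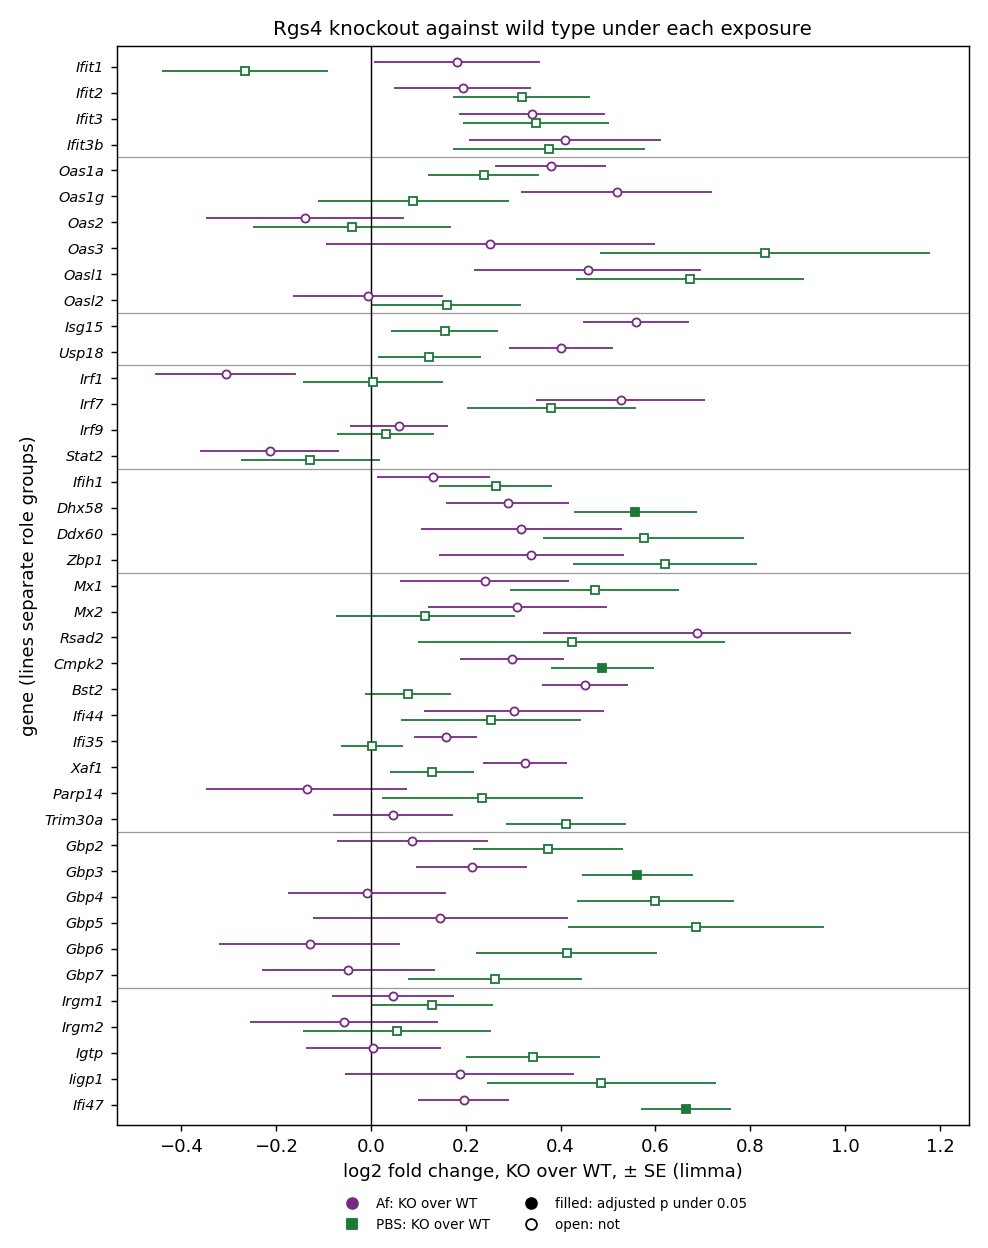
Log2 fold changes of KO over WT with SE (bars) for the 41 genes under Af (circles) and under PBS (squares), where filled symbols mark adjusted p under 0.05 in limma. Under PBS 38 of 41 points lie right of 0 and 4 are filled (Dhx58, Cmpk2, Gbp3 and Ifi47), and under Af 32 of 41 lie right of 0 and none is filled.

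Under Af no member of the 41 passed the test between genotypes, by limma or by edgeR, where 0.0868% of all genes tested were called by limma (0.0372% higher and 0.0496% lower) and 0.0806% by edgeR. In 11 of 41 all KO_Af libraries lay above all WT_Af libraries and in 0 below, against 7.66% and 6.1% of all genes. At an unadjusted p under 0.05, 11 of 41 were higher in KO and 0 lower, against 5.8% of all genes higher and 5.41% lower. The median log2 fold change was 0.20, against 0.00 over all genes, and 32 of 41 were positive. DESeq2 called 3 of the 41, where it called 1.17% of all genes: Isg15 (adjusted p = 0.00168), Bst2 (adjusted p = 0.00197) and Usp18 (adjusted p = 0.0486), each with no overlap between KO_Af and WT_Af. In limma Isg15 had log2 0.56 ± 0.11 and Bst2 log2 0.45 ± 0.09 (adjusted p = 0.129 for each). Isg15 averaged 31.4 ± 4.15 CPM in KO_Af and 21.04 ± 0.594 CPM in WT_Af (SD, n = 3 each), and Bst2 averaged 89.1 ± 6.16 CPM in KO_Af and 65.0 ± 3.37 CPM in WT_Af. Xaf1, an antagonist of an inhibitor of apoptosis, had 32.1, 27.8 and 32.0 CPM in KO_Af, against 23.1, 23.4 and 26.5 CPM in WT_Af (log2 0.33 ± 0.09, adjusted p = 0.257).

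Medians were log2 0.48 for the Isg15 pair, 0.32 for the Oas family, 0.30 for the sensors, 0.30 for the other effectors and 0.27 for the Ifit genes. They were 0.05 for the immunity-related GTPases, 0.04 for the guanylate-binding proteins and -0.08 for the transcription factors, and among single genes Irf1 (log2 -0.31 ± 0.15) had the lowest value. These values depended on KO_Af 12, which lay low in many genes. Without it the medians of the guanylate-binding proteins and immunity-related GTPases were log2 0.23 and 0.20, and that of the transcription factors 0.09. Over the 41 genes the median was then log2 0.37 and 39 of 41 were positive, against a median of log2 0.01 over all genes. Of the 41, 24 had an unadjusted p under 0.05, yet none passed the adjusted test, which 14 of 16046 genes passed. The share of all genes at an unadjusted p under 0.05 was not computed for this fit, so the 24 have no background to stand against. Parp14, a mono-ADP-ribosyltransferase, had 75.2 CPM in KO_Af 12, against 157 and 122 CPM in KO_Af 13 and 14 and 103 to 147 CPM in WT_Af. Monocyte markers were higher in KO_Af with none of 6 passing the test (median log2 0.52, 546 to 782 CPM in KO_Af, against 509 to 592 CPM in WT_Af). Neutrophil markers were positive in 6 of 6 with none passing (median log2 0.51). T cell markers were lower with none of 8 passing (median log2 -0.69, 82.4 to 122 CPM in KO_Af). WT_Af 18 alone held 499 CPM of T cell markers, and WT_Af 19 and 20 held 125 and 97.9 CPM. Medians were log2 0.07 for NK, 0.22 for B cell, 0.40 for eosinophil and -0.07 for plasmacytoid dendritic cell markers. Their part in the values of the 41 genes was not tested.

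The interaction asks whether the response to Af differed between genotypes, and none of the 41 genes passed it by limma, edgeR or DESeq2, where limma and edgeR each called 0.0062% of all genes and DESeq2 2.27%. At an unadjusted p under 0.05, 2 of 41 had a positive and 2 a negative interaction, against 5.08% and 5.77% of all genes. These counts lay near the shares of all genes, so no difference in response is read from them. The positive ones were Isg15 (log2 0.40 ± 0.16) and Bst2 (log2 0.37 ± 0.13), and the negative ones Ifi47 (log2 -0.47 ± 0.13) and Gbp4 (log2 -0.61 ± 0.23). Ifi47 came nearest to the threshold (adjusted p = 0.205). It had 48.8, 45.6 and 39.0 CPM in KO_Af, against 39.1, 36.9 and 40.8 CPM in KO_PBS, and 40.4, 35.9 and 39.7 CPM in WT_Af, against 25.8, 24.6 and 22.9 CPM in WT_PBS. Its WT_PBS libraries were thus the only ones set apart, and the KO_PBS libraries overlapped those of WT_Af. Each group enters more than 1 comparison. The WT_PBS libraries enter the response in WT, the comparison of genotypes under PBS and the interaction, so these results are not independent of one another. The adjusted p of the interaction was 0.368 for Isg15, 0.299 for Bst2 and 0.363 for Gbp4.

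All 6 guanylate-binding proteins (median log2 -0.44), all 5 immunity-related GTPases (median -0.30) and all 4 sensors (median -0.26) had a negative interaction, against a median of 0.00 over all genes. These values rested in part on KO_Af 12: without it the interaction was negative in 6 of 6 guanylate-binding proteins (median log2 -0.18), 3 of 5 immunity-related GTPases (median -0.05) and 3 of 4 sensors (median -0.07). The Isg15 pair was positive in both genes, the Ifit genes in 2 of 4, and the other effectors in 6 of 10. Over the 41 genes the median was log2 -0.13 with 27 negative, and without KO_Af 12 it was 0.02 with 20 negative. Most marker lists moved the same way as the guanylate-binding proteins. The interaction was negative for 8 of 8 T cell markers (median log2 -1.45), 8 of 8 NK cell markers (median -0.86) and 4 of 4 B cell markers (median -1.002). It was also negative for 6 of 6 neutrophil markers (median -0.58), 6 of 6 markers of plasmacytoid dendritic cells (median -0.43) and 5 of 6 endothelial markers (median -0.26). Monocyte, eosinophil and epithelial markers were negative in 3 of 6, 2 of 5 and 1 of 6. The T cell values include WT_Af 18, with a T cell sum of 499 CPM, against 125 and 97.9 CPM in WT_Af 19 and 20. The B cell values include WT_PBS 15, with a B cell sum of 35.2 CPM, against 126 and 126 CPM in WT_PBS 16 and 17. No marker passed the adjusted test in limma, and the part of these cells was not tested.

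**Figure D4:**
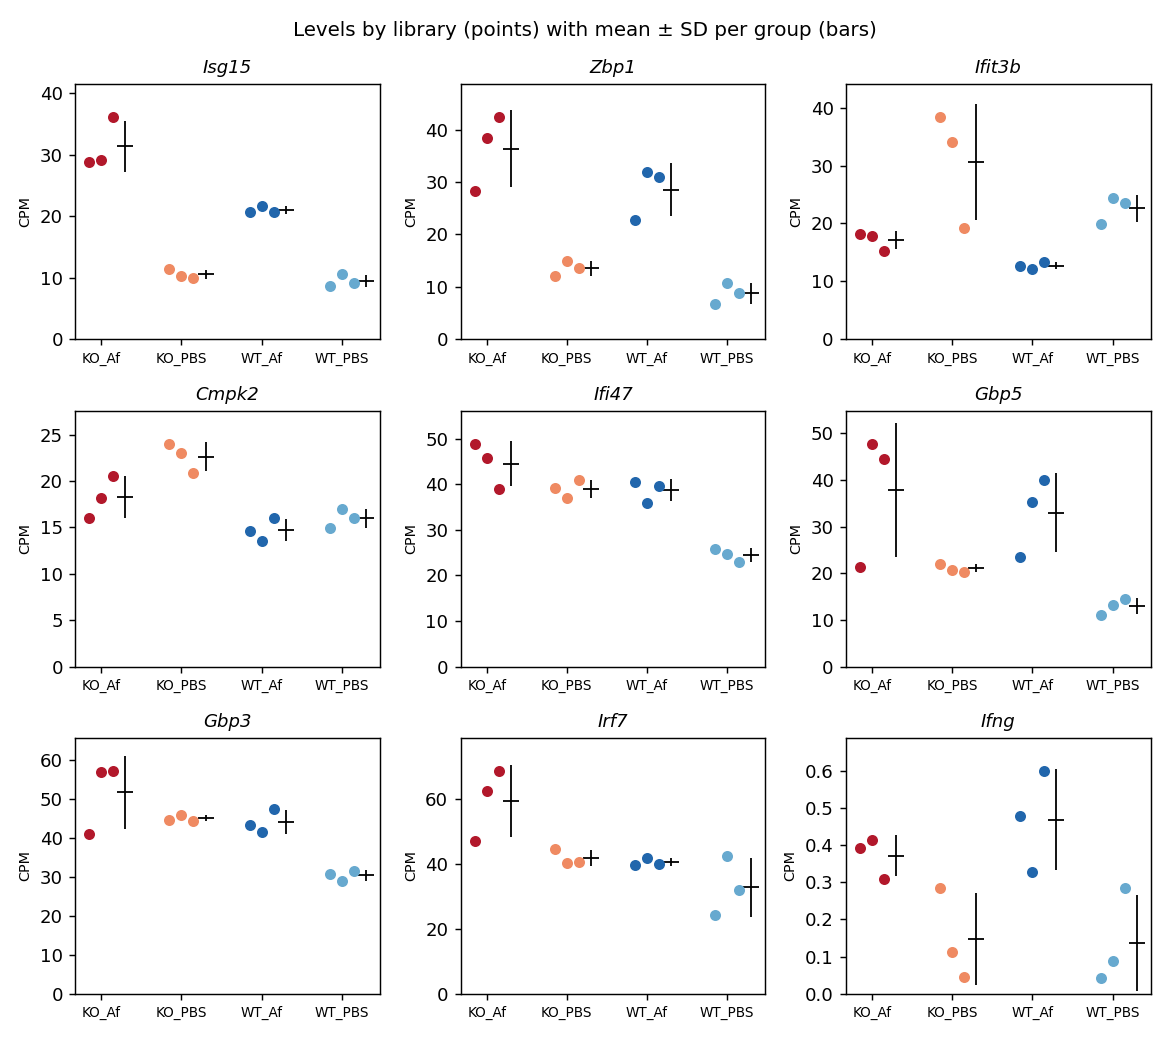
Level in CPM of 9 genes in each library (points) with the mean and SD of each group (bars), n = 3 libraries a group, for KO_Af, KO_PBS, WT_Af and WT_PBS. For Isg15 both Af groups stand above both PBS groups with KO_Af highest, for Ifi47 the WT_PBS libraries (22.9 to 25.8 CPM) stand below all others, and for Gbp5 KO_Af 12 (21.3 CPM) lies among the KO_PBS libraries.

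Across libraries the 41 genes did not form 1 block. Relative to each gene's mean, the median over all 41 was log2 0.42 and 0.38 in KO_Af 13 and 14 and -0.05 in KO_Af 12, against -0.12 to -0.05 in KO_PBS. It was 0.01 to 0.18 in WT_Af, against -0.41 to -0.17 in WT_PBS. Within KO_Af 12, the Isg15 pair stood at log2 0.53, against 0.64 and 0.87 in KO_Af 13 and 14. In KO_Af 12 the transcription factors stood at -0.25, the sensors at -0.17 and the Ifit genes at -0.13. Its other role groups stood near each gene's mean, from -0.09 (guanylate-binding proteins) to 0.04 (other effectors). The summed level of all 41 genes was 1570, 2281 and 2094 CPM in KO_Af, against 1709, 1665 and 1582 CPM in KO_PBS. In WT lungs it was 1662, 1833 and 2017 CPM under Af, against 1337, 1401 and 1397 CPM under PBS. The sums of the WT_PBS libraries were the lowest of all 12, and the Af and PBS sums overlapped in KO but not in WT.

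**Figure D5:**
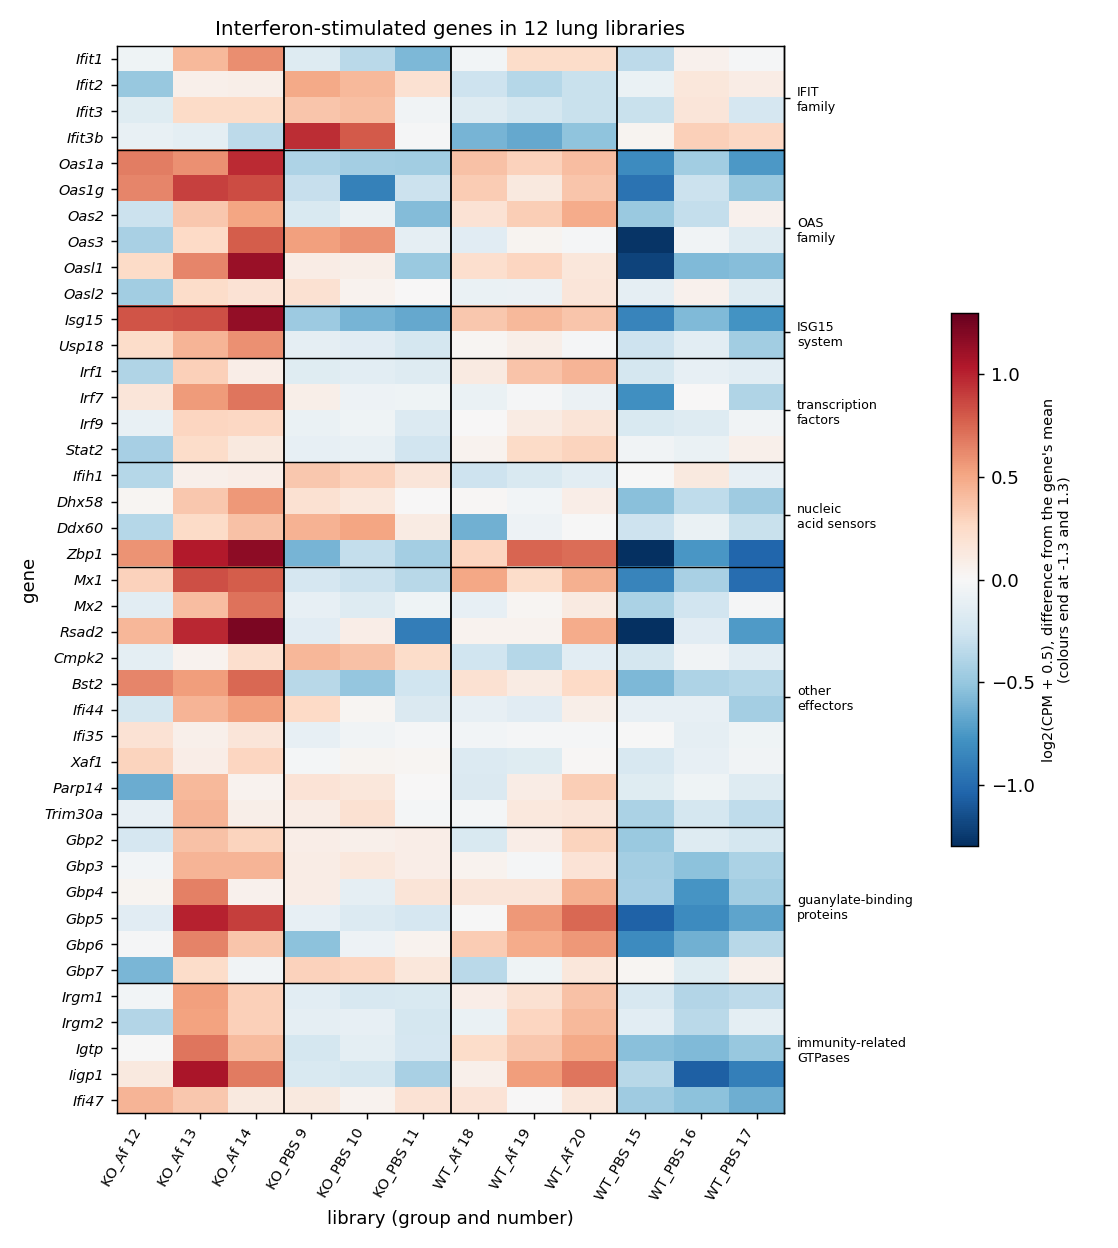
Log2(CPM + 0.5) of each of the 41 genes (rows, grouped by role) in each of the 12 libraries (columns) as the difference from the gene's mean over all libraries. Isg15, Oas1a, Zbp1 and Bst2 are high in all Af libraries, Ifit3b is highest in KO_PBS 9 and 10, and KO_Af 12 is below both KO_Af 13 and 14 in 35 of 41 rows.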

How the data were processed

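Per the labels' protocols, lung RNA was purified with Qiagen RNeasy and sequenced from Illumina TruSeq mRNA libraries. The submitters' processing notes name cutadapt 1.18, STAR 2.7.6a and RSEM 1.3.0 and the builds GRCm38 and GRCh38, with no role for either. The values in the deposited table are a signal that the authors name CPM adjusted by TMM (trimmed mean of M-values). The test planned for CPM was kept, since the values are linear and scaled to library size. In every library 100% of values were whole numbers of reads after division by their step (tolerance 0.01), so read counts could be recovered for edgeR and DESeq2.

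Genes that reached 1 CPM in 3 of 12 libraries were tested with limma 3.58.1 in R 4.3.3 on log2(CPM + 0.5) with its trend option, in 1 fit over 4 groups (8 residual degrees of freedom), with Benjamini-Hochberg adjustment over all 16126 genes. Low genes are understated on this scale. Af was compared with PBS in each genotype and KO with WT under each exposure, and the interaction was tested. The fit was also tested on simulated data. Alternatives were other pseudocounts, filters and scaling, edgeR 4.0.16 and DESeq2 1.42.0 on recovered counts, limma without a trend, the compared groups alone, leaving out each library, and leaving out WT_PBS 17 with KO_Af 12. Leaving out WT_PBS 15, WT_Af 18 and KO_Af 12 together was chosen after seeing the data.

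The 41 genes and all lists (8 role groups, 7 pathway lists, 9 marker lists) were chosen with earlier results of these data known. Values by library are given for the up to 8 called genes with the smallest p in a comparison, the up to 3 with the smallest p in a role group, and Irf1, Irf7, Irf9, Stat2 and Usp18. Of each pathway list up to 4 called genes are named, beside Ifng, Ifnb1, Ifnar1, Ifnar2, Ifngr1, Ifngr2 and Socs1. Some genes of the pathway lists are not reported here. Other values by library were chosen after they were seen. Identifiers were matched without version to GENCODE M21 on GRCm38 (49326 of 49585), and shared 50-base words were counted on its transcripts. Figures were drawn with matplotlib 3.10.9.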

Additional observations from a re-analysis of the deposited data

How the results depend on the processing

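The number of the 41 genes called under Af in WT lungs was 22 and stayed within 17 to 28 with 1 library left out. In KO lungs it was 22, and from 14 (without KO_PBS 9) to 28 with 1 library left out. Between KO and WT under PBS it was 4, with 2 under no filter, 7 in DESeq2, 10 with the compared groups alone and 8 without WT_PBS 15, WT_Af 18 and KO_Af 12, and from 1 to 8 with 1 library left out. Between KO and WT under Af it was 0, with 3 in DESeq2 and 0 in the other alternatives. For the interaction it was 0 in all alternatives run, and the compared groups alone could not be used there, since all groups enter. The causes of these changes were not tested. For the genes followed one by one, mostly those called with all libraries, 1276 values under the alternatives kept their direction and call, 97 lost the call, 3 gained it and 0 reversed. Other genes gained calls too: of the 28 called in KO under Af without KO_Af 12, 20 were among the 22, and of the 10 called under PBS with the compared groups alone, 4 were among the 4.

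Over all genes tested, the number called under Af in WT lungs was 8361, and from 7069 to 9764 with 1 library left out. In KO lungs it was 9331, and from 7921 to 9460 with 1 library left out. Between KO and WT under PBS it was 573, with 373 under no filter, 1216 in DESeq2 and 1124 with the compared groups alone. It was 1146 without the same 3 libraries, and from 130 to 1235 with 1 library left out. Between KO and WT under Af it was 14, with 9 under a filter of 5 CPM, 189 in DESeq2, 3 with the compared groups alone, 5 without the 3 libraries, and from 3 to 111 with 1 library left out. For the interaction it was 1, with 6 under a pseudocount of 2, 366 in DESeq2, 0 under no filter, a filter of 5 CPM, limma without trend or without the 3 libraries, and from 0 to 187 with 1 library left out.

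No paired analysis was possible because each library number is unique and the groups share none. With 3 libraries a group, the SE of a log2 fold change between groups ranged over the 41 genes from 0.07 (Ifi35) to 0.35 (Oas3).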
